A study of Mus musculus with 6 samples.

Results

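Integrins, laminins and the other basement membrane genes were followed in cortical neural progenitors and the neurons they produce. Genes were taken by name: every integrin α subunit with a number and αv, every numbered β subunit, the laminin α, β and γ chains, both nidogens (Nid1 and Nid2), perlecan (Hspg2), agrin (Agrn), dystroglycan (Dag1), Sparc and fibronectin (Fn1). This gave 38 genes of 19938 on the array, each with 1 probe set. RNA came from in vivo brain cells of C57BL/6J mice, sorted by fluorescence with a dual reporter into GFP+ cortical neural progenitors (3 arrays) and RFP+ neuronal progeny, labelled differentiated (3 arrays). Only the GFP+ cells are labelled as cortical, and for the RFP+ cells no brain region is named. Age, the promoters that drive the reporters and whether the replicates came from separate animals are not given in the sources used here, so p-values cover the spread among these samples alone, which may be technical.

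A basement membrane is a thin sheet of extracellular matrix. Its laminins are trimers of an α, a β and a γ chain that polymerise into a network, which nidogen and perlecan tie to a second network of type IV collagen, while agrin links laminin to dystroglycan. Cells hold on to the sheet through integrins, pairs of an α and a β subunit whose tails recruit talin, vinculin and other plaque proteins to actin, and through dystroglycan, which needs its sugar chains to bind laminin. In the developing cortex radial glia, the neural stem cells, anchor their endfeet on the basement membrane under the pia, and blood vessels carry basement membranes of their own. When laminin, integrin or dystroglycan function is lost there, neurons are known to migrate through breaches in the sheet, as in cobblestone lissencephaly.

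Values are probe-set intensities as the authors deposited them, log2 differences subtract the RFP+ from the GFP+ mean of log2(intensity + 16) and carry the SE (standard error) that limma gives, and a gene is called higher in a group when its Benjamini-Hochberg adjusted p over all genes is under 0.05. Folds are taken from these differences, and for dim genes the offset of 16 makes them too small. Median intensities of the arrays lay between 210.3 and 221.1. As a guide to near-background signal, the 95th percentile of 1015 olfactory receptor genes was 211.3 in the GFP+ and 206.3 in the RFP+ group means. The marker genes matched the labels. All 10 progenitor markers were higher in the GFP+ arrays (Pax6 5.03-fold, Sox2 3.67-fold) and all 10 neuronal markers in the RFP+ arrays (Tbr1 4.45-fold, Dcx 1.67-fold). Over all genes 13.7% were called higher in the GFP+ and 16.2% in the RFP+ arrays, the shares to set beside each count of calls. Markers of vessel cells also differed. Of 18 endothelial markers 16 were higher in the GFP+ arrays, led by Emcn and Eng (7.15-fold and 6.51-fold), with a summed intensity of 3208 to 9473 against 1305 to 1609.8. Of 13 pericyte and mural markers 9 were higher there, led by Rgs5 and Pdgfrb (12.8-fold and 12.2-fold), with sums of 6621 to 8399 against 2004 to 2148. The 4 that were not called were Acta2, Myh11, Tagln and Des, at log2 differences of -0.30, -0.26, -0.21 and 0.44. GFP+ replicate 1 stood apart from the other GFP+ arrays in the endothelial list, with a median log2 difference from their mean of -1.26 and a sum of 3208 against 7433 and 9473. No marker was at an intensity of 0 on any array. In bulk samples fewer cells of a type and less RNA per cell cannot be told apart.

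Most of the adhesion and basement membrane genes that differed were higher in the progenitors. Of the 38 genes, 23 were called higher in GFP+ progenitors, where 13.7% of all genes were, and 4 were called higher in RFP+ neurons, where 16.2% of all genes were. The remaining 11 did not pass. The median log2 difference was 0.78 over these genes and -0.08 over all genes. At least a 4-fold difference was called for 9 genes in the GFP+ direction (2.02% of all genes) and at least a 2-fold difference for 16 in that direction (6.99% of all genes) and for 1, Itga3, in the other (5.97% of all genes). No overlap between GFP+ and RFP+ arrays was seen for 30 of the 38 genes and for 43.9% of all genes. Of the 23 genes higher in progenitors, 17 lay under the olfactory guide in the RFP+ mean, so the size of their fold depends on the offset of 16, and 4 (Itga2, Itga9, Itga11 and Lama2) lay under it in both groups. Without GFP+ replicate 1, 22 genes were called higher in progenitors, and without both arrays numbered 1, 20 were. Without any single array the count lay between 20 and 23. Calls towards neurons were fewer without RFP+ replicate 1 or RFP+ replicate 2, at 1 and 2 genes, while Itga3 was called without each of the 6 arrays in turn. With the replicate number as a block, 26 genes were called higher in progenitors (16.7% of all genes) and 4 in neurons (20.3% of all genes).

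**Figure D1:**
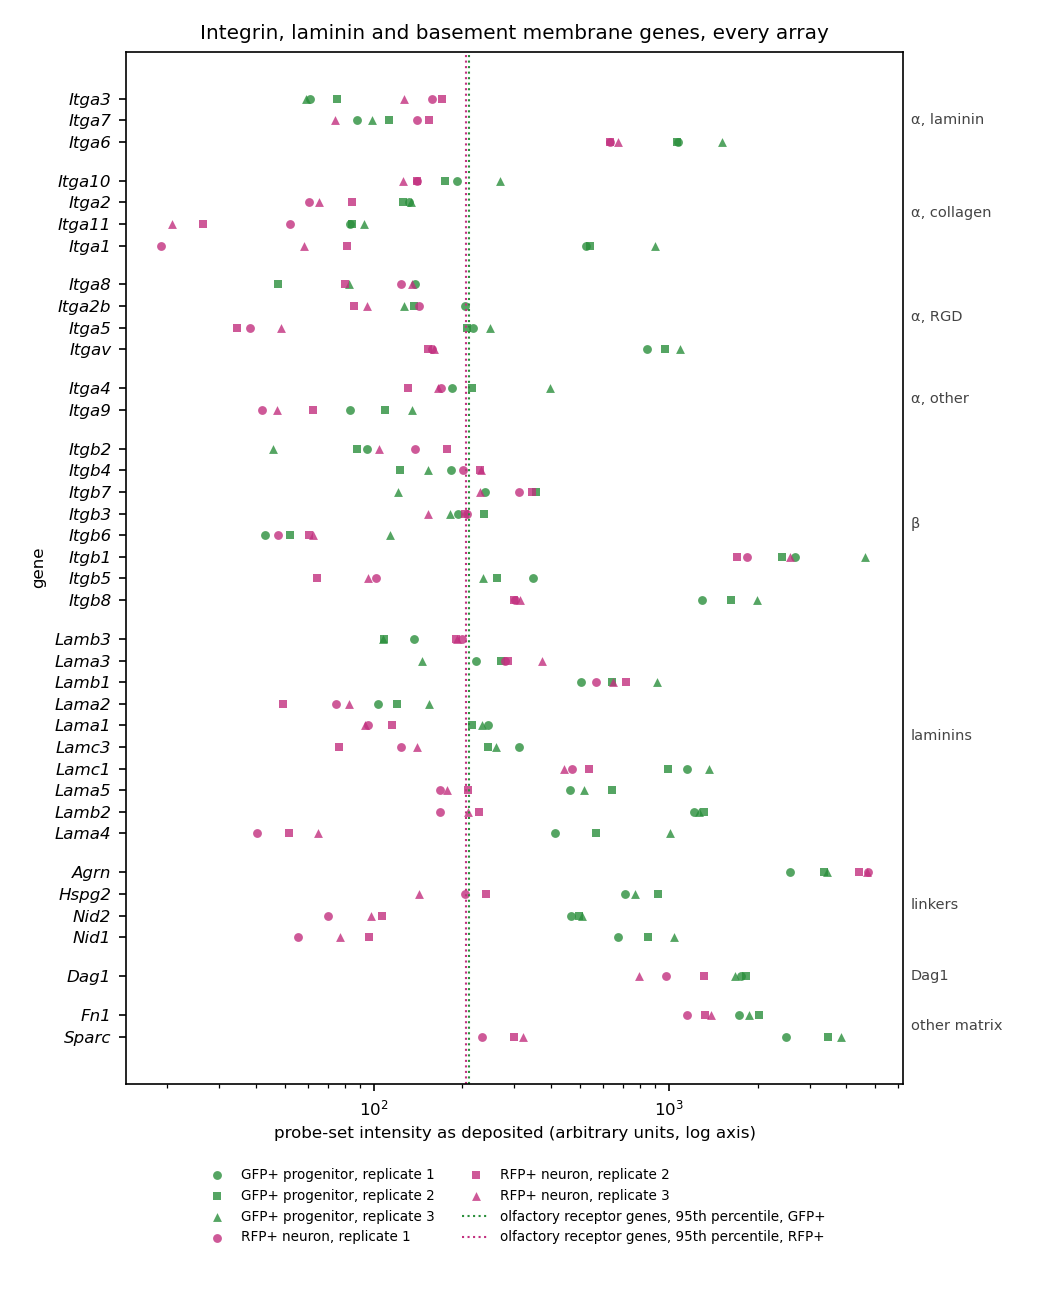
Intensity of each of the 38 genes on each array (log axis, arbitrary units), grouped by role, with green symbols for the 3 GFP+ progenitor arrays, magenta for the 3 RFP+ neuron arrays, a shape for each replicate number, and dotted lines for the olfactory guide of each group. Sparc, Nid1, Lama4 and Itga1 show a wide gap between the groups. Agrn, Itga3, Itgb2, Itgb4, Lama3 and Lamb3 have all RFP+ symbols to the right of the GFP+ ones. Of these, Itgb4 and Lama3 were not called.

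The start regions of 4 of the genes are given here from RefSeq (GRCm38.p6) so that their sequences can be set side by side. Windows run from 250 bases before to 50 bases after the annotated start, in the direction of the gene, and 26 of the 38 genes had 31 such windows. Fn1, Itga6, Itga7, Itgb2, Itgb3, Itgb4, Lama1, Lama3, Lama4, Lamc1, Lamc3 and Nid2 had none. Shown are the 3 genes with a window that had the largest log2 difference towards progenitors with offsets of 1, 16 and 64 alike, although their order changed with the offset, Sparc (chr11:55420031-55420330, minus strand), Itga1 (chr13:115101915-115102214, minus strand) and Nid1 (chr13:13437352-13437651, plus strand), and the start farthest upstream of Agrn (chr4:156197439-156197738, minus strand), the gene higher in neurons whose signal lay above the olfactory guide. Capitals mark matches on either strand to any of GGGCGG (the GC box bound by Sp1), GGAATG (the TEAD motif), TGANTCA (the AP-1 motif) and TATAAA (the TATA box).
Sparc: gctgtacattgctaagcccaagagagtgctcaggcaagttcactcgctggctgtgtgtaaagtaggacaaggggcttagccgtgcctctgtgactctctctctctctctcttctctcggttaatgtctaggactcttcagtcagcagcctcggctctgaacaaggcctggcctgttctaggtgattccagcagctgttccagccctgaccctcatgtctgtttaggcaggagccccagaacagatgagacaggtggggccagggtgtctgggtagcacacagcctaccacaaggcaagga
Itga1: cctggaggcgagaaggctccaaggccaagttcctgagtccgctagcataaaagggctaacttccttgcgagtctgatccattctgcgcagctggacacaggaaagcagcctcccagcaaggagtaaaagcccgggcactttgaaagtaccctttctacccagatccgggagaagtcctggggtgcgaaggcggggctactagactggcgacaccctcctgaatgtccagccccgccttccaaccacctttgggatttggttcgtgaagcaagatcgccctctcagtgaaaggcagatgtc
Nid1: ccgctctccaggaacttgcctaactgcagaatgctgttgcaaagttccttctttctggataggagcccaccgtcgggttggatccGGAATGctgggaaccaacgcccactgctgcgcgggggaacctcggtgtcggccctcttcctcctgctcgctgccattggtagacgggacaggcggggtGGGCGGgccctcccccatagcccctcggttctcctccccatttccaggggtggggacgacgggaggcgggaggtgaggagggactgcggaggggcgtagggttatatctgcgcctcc
Agrn: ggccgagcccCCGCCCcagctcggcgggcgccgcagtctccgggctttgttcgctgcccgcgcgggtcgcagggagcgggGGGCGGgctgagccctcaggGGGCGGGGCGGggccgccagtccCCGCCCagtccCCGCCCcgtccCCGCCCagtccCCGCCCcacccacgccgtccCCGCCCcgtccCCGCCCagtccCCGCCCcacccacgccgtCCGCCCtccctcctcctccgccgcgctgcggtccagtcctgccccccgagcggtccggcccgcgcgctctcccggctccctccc
The Sparc and Itga1 windows held no match. Nid1 had 1 GC box and 1 TEAD match, and Agrn had 12 GC boxes, some of them overlapping, and no other match. No base in these windows belonged to matches of more than 1 of the motifs. The GC box occurred in 17 of the 31 member windows and in 35.7% of 32851 windows of all genes, the TEAD motif in 4 and 14.7%, the AP-1 motif in 2 and 7.81%, and the TATA box in 0 and 13.6%. G and C made up 83.3% of the Agrn window and 55.3% of the Sparc window, with a median of 59.3% over the member windows and 52.7% over all. A match is a description of the sequence, not of a site in use.

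Integrin α subunits decide which matrix a pair can bind, and 8 of 13 were higher in GFP+ progenitors, 1 was higher in RFP+ neurons and 4 did not pass. All 4 collagen-binding subunits were higher in progenitors. Itga1, which pairs with β1 to bind type IV collagen, read 524, 541 and 895 in the GFP+ arrays and 19.1, 81.3 and 58.1 in the RFP+ arrays. Every GFP+ array was far above every RFP+ array, a 10.3-fold difference (log2 difference 3.36 ± 0.30 SE, adjusted p = 4.30e-08). Itga11, a receptor for fibrillar collagen, read 83, 84.4 and 92.7 in the GFP+ arrays and 52.1, 26.5 and 20.8 in the RFP+ arrays (2.16-fold, log2 difference 1.11 ± 0.23 SE, adjusted p = 8.42e-04). Itga2, a further collagen receptor, read 131, 126 and 134 in the GFP+ arrays and 60.6, 84.7 and 65.2 in the RFP+ arrays (log2 difference 0.77 ± 0.20 SE, adjusted p = 0.00611), and Itga10 read 192, 174 and 268 in the GFP+ arrays and 140.2, 140.2 and 125 in the RFP+ arrays (log2 difference 0.57 ± 0.21 SE, adjusted p = 0.0474). Both groups of Itga11 and Itga2 lay under the olfactory guide, so for these 2 genes the difference was one between near-background signals. The call of Itga10 was lost without any 1 of GFP+ replicates 1 and 3 and RFP+ replicates 1, 2 and 3 (adjusted p = 0.0582, 0.183, 0.102, 0.0921 and 0.132).

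The laminin receptors went different ways. Itga6, the main laminin receptor subunit of neural stem cells, read 1076, 1069 and 1514 in the GFP+ arrays and 631, 630.4 and 673 in the RFP+ arrays. The groups did not overlap and the GFP+ arrays were 1.85-fold higher (log2 difference 0.88 ± 0.21 SE, adjusted p = 0.00268). Itga3, which binds laminin as α3β1 and is known for its part in neuronal migration, read 61, 75.4 and 58.9 in the GFP+ arrays and 158, 170.4 and 127 in the RFP+ arrays. Here the RFP+ arrays were the higher ones, 2.06-fold (log2 difference -1.04 ± 0.20 SE, adjusted p = 5.36e-04), and this was the largest difference towards neurons among the 38 genes, with all 6 values under the olfactory guide. Itga7, known as the laminin receptor subunit of muscle, read 88.1, 112 and 99.1 in the GFP+ arrays and 140.4, 154 and 74 in the RFP+ arrays, and its groups overlapped (log2 difference -0.21, 95% interval -0.71 to 0.28, adjusted p = 0.52).

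Among subunits that bind the RGD tripeptide of fibronectin and vitronectin, αv and α5 were higher in progenitors. Itgav, the shared α subunit of the vitronectin receptors and of the integrins that activate TGF-β, read 843, 969.7 and 1087 in the GFP+ arrays and 158, 153 and 161 in the RFP+ arrays. The RFP+ arrays lay within a narrow range and all GFP+ arrays were well above it, a 5.65-fold difference (log2 difference 2.50 ± 0.20 SE, adjusted p = 1.22e-08). Itga5, the fibronectin receptor subunit, read 218, 208 and 249 in the GFP+ arrays and 38.1, 34.6 and 48.7 in the RFP+ arrays (4.28-fold, log2 difference 2.10 ± 0.20 SE, adjusted p = 1.20e-07). Itga8, a nephronectin receptor subunit, read 138, 47.5 and 82.3 in the GFP+ arrays and 124, 80 and 135 in the RFP+ arrays. Itga2b, the platelet subunit, read 205, 138 and 126 in the GFP+ arrays and 143, 85.9 and 95 in the RFP+ arrays. Both overlapped between the groups, at log2 differences of -0.36 (95% interval -0.93 to 0.21, adjusted p = 0.336) and 0.48 (-0.01 to 0.96, adjusted p = 0.128). Itga9, which binds tenascin C, was 1.87-fold higher in progenitors (log2 difference 0.91 ± 0.22 SE, adjusted p = 0.00318), with 83.3, 109.5 and 135 in the GFP+ arrays and 42, 62.1 and 47.1 in the RFP+ arrays. Its relative Itga4, a receptor of fibronectin and VCAM1, read 184, 215 and 395 in the GFP+ arrays and 169, 131 and 166 in the RFP+ arrays and did not pass (log2 difference 0.65, 95% interval 0.13 to 1.16, adjusted p = 0.0532), although its arrays did not overlap. With the replicate number as a block both Itga4 and Itga2b passed (adjusted p = 0.04 and 0.038), and Itga4 also passed without GFP+ replicate 1 (adjusted p = 0.0208). Of 5 platelet markers 0 were called in either direction by limma (1 at an unadjusted p under 0.05, towards neurons), with the largest differences towards progenitors at 0.44 for Ppbp and 0.10 for Gp9.

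Of 8 integrin β subunits 2 were higher in GFP+ progenitors, both of them partners of αv. Itgb8, which pairs with αv on radial glia and activates TGF-β for brain vessels, read 1299, 1625 and 1986 in the GFP+ arrays and 302, 299 and 312 in the RFP+ arrays. Its RFP+ values were nearly equal and the GFP+ values 5.08-fold higher (log2 difference 2.35 ± 0.21 SE, adjusted p = 4.40e-08). Itgb5, the β subunit of a vitronectin receptor, read 347, 262 and 234 in the GFP+ arrays and 102, 64.5 and 95.7 in the RFP+ arrays, also without overlap (2.87-fold, log2 difference 1.52 ± 0.22 SE, adjusted p = 2.02e-05). The other αv partners did not pass. Itgb3 read 193, 238 and 182 in the GFP+ arrays and 207, 204 and 153 in the RFP+ arrays, and Itgb6, an epithelial subunit, read 42.7, 52.2 and 114 in the GFP+ arrays and 47.3, 60.3 and 62.5 in the RFP+ arrays. With overlapping groups, Itgb3 had a log2 difference of 0.11 (95% interval -0.32 to 0.55, adjusted p = 0.709) and Itgb6 one of 0.15 (-0.38 to 0.68, adjusted p = 0.684).

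Itgb1, the common partner of the laminin and collagen receptors, read 2672, 2428 and 4611 in the GFP+ arrays and 1836, 1701 and 2578 in the RFP+ arrays. GFP+ replicate 3 was the highest, and RFP+ replicate 3 lay above GFP+ replicate 2, so the groups overlapped by a small margin (log2 difference 0.63 ± 0.25 SE, 95% interval 0.11 to 1.14, adjusted p = 0.0623). Each GFP+ array was above the RFP+ array of the same number, and with the replicate number as a block the gene passed (adjusted p = 0.0142). It also passed without GFP+ replicate 2 or RFP+ replicate 3 (adjusted p = 0.0335 and 0.0313).

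Of the remaining β subunits only Itgb2 passed, towards neurons. Itgb2, the β subunit of leukocyte integrins, read 95, 87.8 and 45.8 in the GFP+ arrays and 138, 177 and 104 in the RFP+ arrays (1.71-fold higher in RFP+, log2 difference -0.78 ± 0.25 SE, adjusted p = 0.0214), with every value under the olfactory guide. Leaving out GFP+ replicate 3 or either of RFP+ replicates 1 and 2 ended its call (adjusted p = 0.115, 0.0572 and 0.109). Beside it, 1 of 15 myeloid markers, Trem2, was called higher in RFP+ and 0 in GFP+ by limma (1 and 0 at an unadjusted p under 0.05), with sums of 2497 to 3024 in the GFP+ and 2539.7 to 3143 in the RFP+ arrays. The largest differences towards progenitors in that list were 0.41 for Cd68 and 0.25 for Tyrobp, neither called. The part of those cells in the Itgb2 signal was not tested. Itgb4, the epithelial partner of α6, read 183, 122 and 153 in the GFP+ arrays and 200.5, 229 and 231 in the RFP+ arrays and missed the threshold (log2 difference -0.50, 95% interval -0.93 to -0.07, adjusted p = 0.0759), which it passed without GFP+ replicate 1 (adjusted p = 0.0436). Every RFP+ array of Itgb4 was above every GFP+ array. Itgb7, the lymphocyte subunit, read 239, 355 and 121 in the GFP+ arrays and 312, 344 and 229.8 in the RFP+ arrays, and its groups overlapped (log2 difference -0.39, 95% interval -0.97 to 0.20, adjusted p = 0.315).

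**Figure D2:**
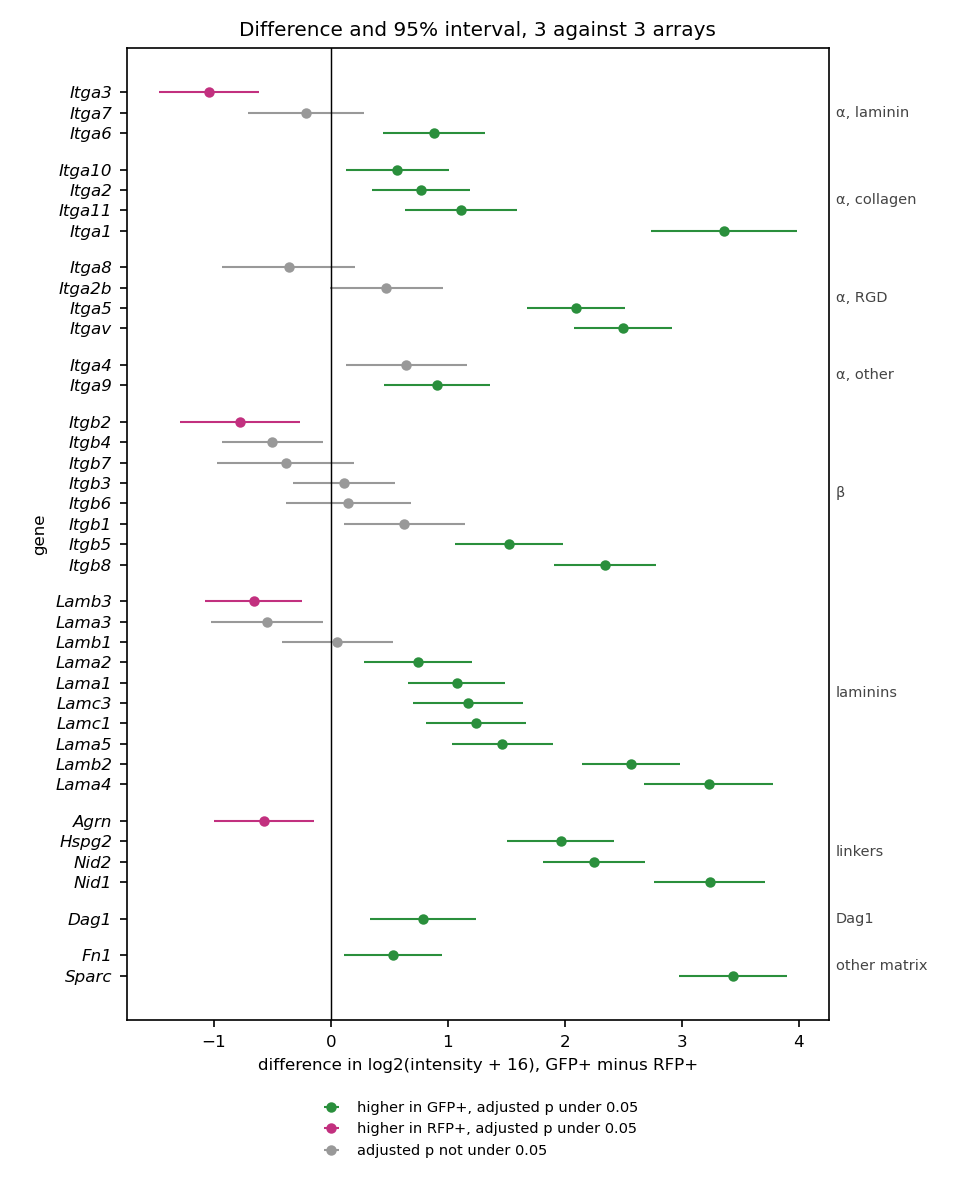
Difference in log2(intensity + 16), GFP+ minus RFP+, for each of the 38 genes by role, with bars for the 95% interval of limma (not adjusted for the number of genes), green where called higher in GFP+, magenta where called higher in RFP+ and grey where not called. The collagen receptor subunits all lie to the right of 0, the laminin receptor subunits lie on both sides, and among the laminin chains Lama4 and Lamb2 lie farthest right.

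Laminin chains showed the same majority: 7 of 10 were higher in progenitors, 1 in neurons, and 2 did not pass. Among α chains, Lama4, the chain of vascular laminins, read 412, 566 and 1007 in the GFP+ arrays and 40.2, 51.7 and 64.9 in the RFP+ arrays. It was 9.39-fold higher in progenitors (log2 difference 3.23 ± 0.26 SE, adjusted p = 1.66e-08), and GFP+ replicate 1, the array with the lowest endothelial markers, was the lowest GFP+ array for it, by -0.85 on the log2 scale from the mean of the others. Lama5, found in both pial and vascular basement membranes, read 464, 643 and 518 in the GFP+ arrays and 168, 209 and 178 in the RFP+ arrays (2.76-fold, log2 difference 1.47 ± 0.21 SE, adjusted p = 1.44e-05). Lama1, the chain of the embryonic laminin of the pial membrane, read 245, 215 and 233 in the GFP+ arrays and 95.4, 115 and 93.3 in the RFP+ arrays without overlap (2.11-fold, log2 difference 1.08 ± 0.20 SE, adjusted p = 2.90e-04). Lama2, known from muscle and from vessels of the brain, was 1.68-fold higher (log2 difference 0.75 ± 0.22 SE, adjusted p = 0.014) at intensities of 103, 120.1 and 154 in the GFP+ arrays and 74.3, 49.3 and 82.4 in the RFP+ arrays, all under the olfactory guide, and lost the call without GFP+ replicate 3 or RFP+ replicate 2 (adjusted p = 0.0566 and 0.0976).

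Lama3 and Lamb3 are chains of the laminin that anchors epidermis, and Lamb3 was the laminin gene called higher in neurons. Lamb3 read 137, 109 and 108 in the GFP+ arrays and 199.8, 190.2 and 192 in the RFP+ arrays and was 1.58-fold higher in RFP+ (log2 difference -0.66 ± 0.20 SE, adjusted p = 0.0166), under the olfactory guide in all arrays, a call lost without RFP+ replicate 1 (adjusted p = 0.0651). Lama3 read 223, 269.9 and 146 in the GFP+ arrays and 278, 285 and 371 in the RFP+ arrays and did not pass (log2 difference -0.55, 95% interval -1.03 to -0.06, adjusted p = 0.0807), but did without GFP+ replicate 2 (adjusted p = 0.0343). Its arrays did not overlap between the groups.

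Of the other β and γ chains, Lamb2, Lamc1 and Lamc3 were higher in progenitors and Lamb1 did not pass. Lamb2, the β chain of pial and synaptic laminins, read 1215, 1314 and 1266 in the GFP+ arrays and 168, 228 and 208 in the RFP+ arrays, with tight groups and a 5.93-fold difference (log2 difference 2.57 ± 0.20 SE, adjusted p = 1.06e-08). For Lamb1, the β chain it can replace in a trimer, the arrays gave 505, 644 and 909 in the GFP+ arrays and 565, 715 and 649 in the RFP+ arrays. The groups overlapped fully, and the log2 difference of 0.06 had a 95% interval of -0.42 to 0.53 (adjusted p = 0.871). Lamc1, the γ chain of most laminins, read 1149.5, 996 and 1373 in the GFP+ arrays and 471, 537 and 443 in the RFP+ arrays (2.37-fold higher in progenitors, log2 difference 1.24 ± 0.21 SE, adjusted p = 9.20e-05). Lamc3, a γ chain known from malformations of the occipital cortex when mutated, read 311, 244 and 259.5 in the GFP+ arrays and 124, 76.5 and 141 in the RFP+ arrays (2.26-fold, log2 difference 1.18 ± 0.22 SE, adjusted p = 4.11e-04).

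The genes that tie the laminin network together were higher in progenitors except agrin. Nid1, a nidogen that bridges laminin and type IV collagen, read 672, 848 and 1046 in the GFP+ arrays and 55.6, 96.9 and 76.8 in the RFP+ arrays. No RFP+ value came near the GFP+ range, a 9.44-fold difference (log2 difference 3.24 ± 0.23 SE, adjusted p = 3.53e-09). Nid2, its close relative, read 468, 495 and 510.2 in the GFP+ arrays and 69.9, 107 and 98.2 in the RFP+ arrays (4.76-fold, log2 difference 2.25 ± 0.21 SE, adjusted p = 6.34e-08), and Hspg2, which encodes the heparan sulfate proteoglycan perlecan, read 710.5, 917 and 769 in the GFP+ arrays and 204, 239.6 and 143 in the RFP+ arrays (3.9-fold, log2 difference 1.96 ± 0.22 SE, adjusted p = 7.45e-07). Agrn encodes agrin, a proteoglycan that binds laminin and dystroglycan and organises synapses. It read 2569, 3351 and 3442 in the GFP+ arrays and 4719, 4424 and 4681 in the RFP+ arrays, with each RFP+ array above each GFP+ array, and was 1.49-fold higher in neurons (log2 difference -0.57 ± 0.20 SE, adjusted p = 0.0397). Of the 4 genes called higher in neurons it was the one above the olfactory guide. GFP+ replicate 1 was the lowest of the GFP+ arrays for Agrn (by -0.40 on the log2 scale). Its call was lost without GFP+ replicate 1 or any 1 of the RFP+ arrays (adjusted p = 0.136, 0.117, 0.0799 and 0.0959).

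Dag1 encodes dystroglycan, the laminin receptor that joins the basement membrane to the dystrophin complex. It read 1758, 1824 and 1672 in the GFP+ arrays and 980.02, 1312 and 792 in the RFP+ arrays and was 1.73-fold higher in progenitors (log2 difference 0.79 ± 0.22 SE, adjusted p = 0.00873). All GFP+ values were above all RFP+ values, and the call was lost without RFP+ replicate 3, its lowest array (adjusted p = 0.063). Sparc encodes a collagen-binding matrix glycoprotein made by endothelium and glia. With 2493, 3450.5 and 3835 in the GFP+ arrays and 232, 299 and 322 in the RFP+ arrays it was 10.8-fold higher in progenitors (log2 difference 3.44 ± 0.22 SE, adjusted p = 1.48e-09), with both groups above the olfactory guide. Fn1, the fibronectin gene, read 1725, 2026 and 1863 in the GFP+ arrays and 1150.4, 1331 and 1386 in the RFP+ arrays. Its groups were apart but close, 1.45-fold higher in progenitors (log2 difference 0.53 ± 0.20 SE, adjusted p = 0.0495), and the call was lost without any 1 of the 6 arrays (adjusted p = 0.0539 to 0.189).

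Vessel markers were higher in the same arrays as most of these genes. Over the 38 genes GFP+ replicate 1 lay -0.13 (median log2) from the other GFP+ arrays, against -0.03 over all genes, -1.26 over the endothelial and 0.28 over the pericyte and mural list. The median was -0.33 over the meningeal fibroblast, -0.22 over the neuron, -0.01 over the progenitor and 0.23 over the myeloid list. GFP+ replicate 1 was the lowest GFP+ array for 19 of the 38 genes and for 35.4% of all genes. The same held for 16 of 18 endothelial, 10 of 12 meningeal fibroblast and 0 of 13 pericyte and mural markers. The genes that were lowest there included Lama4 (-0.85), Itgb6 (-0.68), Itga4 (-0.62), Lamb1 (-0.58), Sparc (-0.54), Nid1 (-0.48), Itga9 (-0.47), Itgb8 (-0.46), Agrn (-0.40) and Itga1 (-0.40). Of these, Itgb6, Itga4 and Lamb1 were not called, and Agrn was called higher in neurons. Lamb2 (-0.08), Itga5 (-0.06), Nid2 (-0.10) and Lamc1 (-0.02) lay close to the mean of the others. Itga8 (0.97), Itga2b (0.58), Itgb2 (0.47) and Itgb5 (0.46) lay above that mean. On GFP+ replicate 1 alone Lama4 read 412, Sparc 2493, Nid1 672 and Itga1 524, each above all 3 RFP+ arrays. Vessel marker sums on that array were above all 3 RFP+ arrays too. They were 3208 against 1305 to 1609.8 for the endothelial list and 8399 against 2004 to 2148 for the pericyte and mural list. Of 12 meningeal fibroblast markers 5 were higher in the GFP+ arrays, led by Foxc1 and Col3a1 (8.09-fold and 3.4-fold), with sums of 1894 to 2180.2 against 1116 to 1310.2, and 5 of the 12, called or not, exceeded the olfactory guide in GFP+. Of 7 oligodendrocyte lineage markers 4 were higher there (Olig2 13.1-fold, Pdgfra 10.9-fold), and of 6 erythroid markers 1, Klf1 (1.57-fold), with Hbb-y at a log2 difference of 0.77 that did not pass. The part of vessel, meningeal or other cells in the differences of the adhesion genes was not tested.

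**Figure D3:**
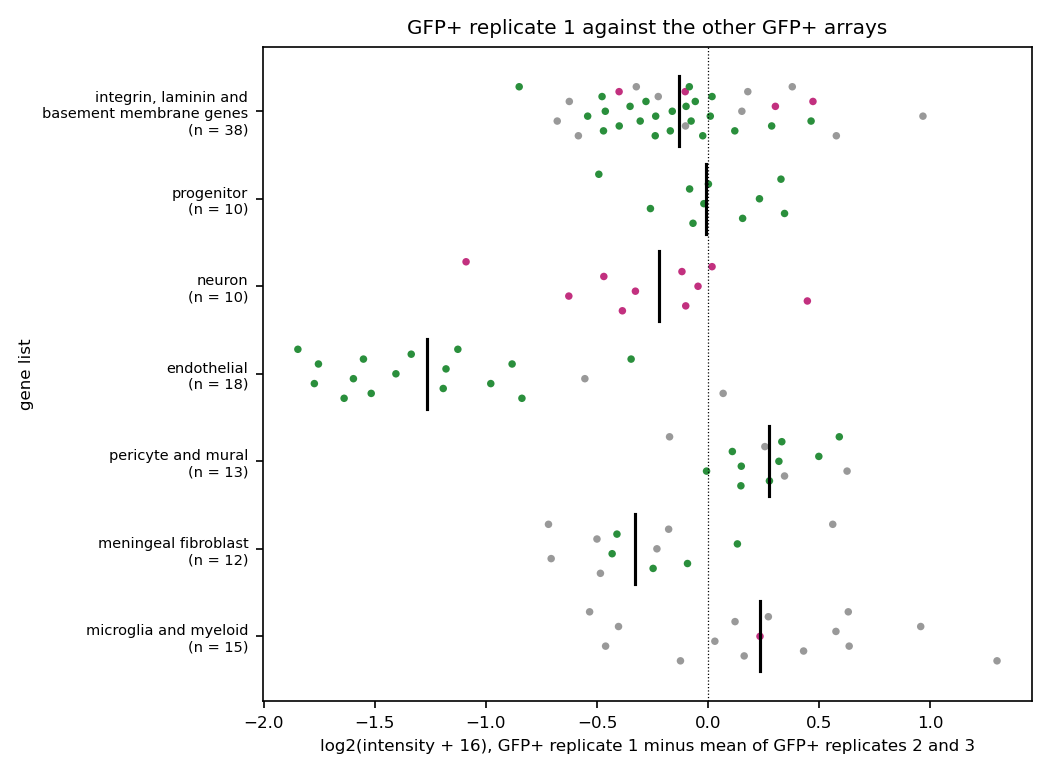
Log2(intensity + 16) on GFP+ replicate 1 minus the mean of GFP+ replicates 2 and 3 for the 38 genes and for marker lists, 1 point a gene, green where called higher in GFP+, magenta where called higher in RFP+, grey where not called, with a black line at each median. The endothelial markers sit far to the left of 0 (median -1.26), the pericyte and mural markers to the right (0.28) and the 38 genes in between (-0.13). The meningeal fibroblast markers (-0.33) and neuron markers (-0.22) lie to the left by their medians, the progenitor markers near 0 (-0.01) and the myeloid markers to the right (0.23).

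Inside the cell, part of the adhesion plaque was also higher in progenitors. Of 30 measured genes of 32 listed for the proteins that couple integrins to actin, 12 were higher in progenitors, 1 was higher in neurons and 17 did not pass (median log2 difference 0.30). Over all genes 13.7% were called higher in progenitors and 16.2% in neurons. Parva, which encodes the ILK partner α-parvin, read 1349.8, 1799 and 1702 in the GFP+ arrays and 252, 312 and 247 in the RFP+ arrays (5.69-fold, log2 difference 2.51 ± 0.21 SE, adjusted p = 1.83e-08). The tensin genes Tns3 and Tns1, whose products link integrin β tails to actin, were 4.99-fold and 4.73-fold higher (log2 difference 2.32 ± 0.19 SE, adjusted p = 2.24e-08 for Tns3). Vcl (vinculin), Zyx (zyxin) and Tln1 (talin 1, the activator of integrins) were 4.24-fold, 2.94-fold and 2.77-fold higher. Ilk itself read 3994, 4126 and 3078 in the GFP+ arrays and 3978, 3818 and 3185 in the RFP+ arrays, at a log2 difference of 0.02 (95% interval -0.41 to 0.46), and Tln2, the second talin gene, at 0.55 (adjusted p = 0.0701). The gene that was higher in neurons was Fyn, a Src family kinase, 1.56-fold (log2 difference -0.64 ± 0.21 SE, adjusted p = 0.0274), a call lost without GFP+ replicate 1, GFP+ replicate 2 or RFP+ replicate 3, after which no listed gene was called in that direction by limma (1 at an unadjusted p under 0.05).

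Few of the partners of dystroglycan and the enzymes that glycosylate it were called, a share near that of all genes towards progenitors. Of 20 measured genes of 26 listed, 3 were higher in progenitors (13.7% of all genes were), 1 in neurons (16.2% of all genes) and 16 did not pass (median -0.12). Utrn, the dystrophin relative utrophin, was 3.37-fold higher in progenitors (log2 difference 1.75 ± 0.21 SE, adjusted p = 2.13e-06), with 497, 512 and 759.9 in the GFP+ arrays and 154, 163 and 164 in the RFP+ arrays. Dmd, the dystrophin gene, was 2.07-fold higher and Pomt2, an O-mannosyltransferase gene that acts on dystroglycan, 1.72-fold. Sntb2, a syntrophin gene, went the other way, 2.72-fold higher in neurons (log2 difference -1.44 ± 0.20 SE, adjusted p = 1.47e-05). It read 42.8, 58.6 and 63 in the GFP+ arrays and 180, 183 and 161 in the RFP+ arrays, all under the olfactory guide. Towards neurons 2 genes were called without GFP+ replicate 2 or GFP+ replicate 3. With the replicate number as a block 4 genes were called in each direction, where 16.7% and 20.3% of all genes were.

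Other components of the basement membrane were more often called higher in progenitors than in neurons. Of 25 measured of 26 listed, 13 were higher in progenitors (13.7% of all genes were), 2 in neurons (16.2% of all genes) and 10 did not pass (median 0.61). Col4a1, which forms with Col4a2 the common type IV collagen, read 1173, 1424 and 1684 in the GFP+ arrays and 153, 157 and 162 in the RFP+ arrays (8.24-fold, log2 difference 3.04 ± 0.21 SE, adjusted p = 2.47e-09). Col4a2 was 5.78-fold, Col4a5 4.77-fold and Col4a6 2.16-fold higher, while Col4a4 had a log2 difference of -0.47 (adjusted p = 0.116). Col4a6 and Col4a4 lay under the olfactory guide in both groups, and Col4a1, Col4a2 and Col4a5 lay under it in the RFP+ mean. Egfl6 and Col4a3 were called higher in neurons (2.53-fold and 1.61-fold), both at intensities under the olfactory guide, and without RFP+ replicate 2 or RFP+ replicate 3 there was 1 such call. The endothelial and mural lists, higher in the same arrays, had medians of 2.0 and 2.33.

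Further matrix receptors and integrin ligands were more often called higher in progenitors than in neurons. Of 27 measured of 28 listed, 14 were higher in progenitors (13.7% of all genes were), 4 in neurons (16.2% of all genes) and 9 did not pass (median 0.64). The share called towards neurons was near that of all genes. Vtn, the gene of the αv ligand vitronectin and also a known pericyte gene, read 1047, 1062 and 1148 in the GFP+ arrays and 35, 61.5 and 44.7 in the RFP+ arrays (17.7-fold, log2 difference 4.15 ± 0.21 SE, adjusted p = 4.96e-10), and its RFP+ values lay under the olfactory guide, so that the fold depends on the offset. Mfge8, whose product binds αv integrins through an RGD sequence, was 12.8-fold higher, with 2871, 3081 and 2417 in the GFP+ arrays and 172, 251 and 190.2 in the RFP+ arrays. Tnc, tenascin C, a ligand of α9 and αv integrins in radial glia, was 8.01-fold higher (log2 difference 3.0 ± 0.22 SE, adjusted p = 3.96e-09). Reln, the secreted signal of Cajal-Retzius cells, was 4.4-fold higher in neurons (log2 difference -2.14 ± 0.21 SE, adjusted p = 1.84e-07), and with it Spock1 (3.12-fold), Cd47 (1.66-fold), which associates with αvβ3, and the tetraspanin gene Cd151 (1.5-fold), which associates with laminin-binding integrins. Without GFP+ replicate 1 or RFP+ replicate 1, 2 genes were called towards neurons.

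**Figure D4:**
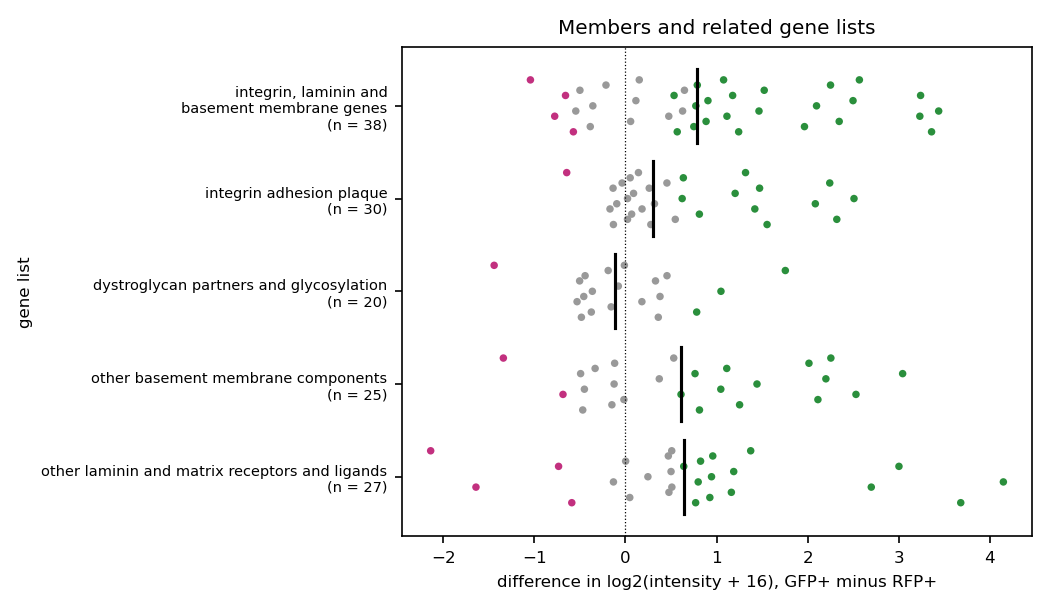
Difference in log2(intensity + 16), GFP+ minus RFP+, for the 38 genes and for 4 lists of related genes, 1 point a gene, green where called higher in GFP+, magenta where called higher in RFP+, grey where not called, with a black line at each median. The median is 0.78 for the 38 genes, 0.30 for the adhesion plaque, -0.12 for dystroglycan partners, 0.61 for other basement membrane components and 0.64 for other receptors and ligands.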

How the data were processed

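RNA of 6 sorted cell samples was hybridised to Affymetrix whole-transcript arrays. The authors deposited 1 linear intensity per probe set, made with Affymetrix Expression Console per the submitters' processing notes. Its version, background correction and normalization are not given in the sources used here. Of 35557 probe sets 21789 carried 1 gene symbol, 1621 several and 12147 none. For a gene with several, the one with the highest mean log2(intensity + 16) was kept, leaving 19938 genes. All were tested without a filter with limma 3.58.1 in R 4.3.3 (lmFit, eBayes, two-sided, prior degrees of freedom 15.5), Benjamini-Hochberg adjusted, threshold 0.05. Tables and figures used Python 3.11.15, pandas 2.3.3 and matplotlib 3.10.9. On simulated data for this comparison, 19738 of 19938 genes were left unchanged. There 1, 17, 41 and 50 of 50 genes changed 1.5-, 2-, 4- and 8-fold were recovered. In the measured data 30.0% of all genes were called in either direction, a far larger share than was changed there. The adjusted p depends on that share, and recovery at the measured share was not tested.

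Titles carry replicate numbers. Deviations from the group mean correlated across genes at 0.204, 0.288 and 0.361 for equal numbers and at -0.267 to 0.00422 for unequal ones, so the numbers were taken to pair the samples. Deviations within a group sum to 0 and are not independent. The main fit did not use the pairing by number, so its SE, p-values and calls treat the arrays as unpaired. Without the block 13.7% of all genes were called higher in progenitors and 16.2% in neurons. With it the shares were 16.7% and 20.3%. For the integrins, laminins and basement membrane genes taken by name, blocked values are printed where they change a call. For single genes of the lists they are not printed. With the block, the adhesion plaque list had 13 genes called higher in progenitors (12 without it) and 1 in neurons (1). Other basement membrane components had 14 (13) and 3 (2). Other receptors and ligands had 18 (14) and 4 (4).

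Members and lists were chosen with earlier results of these data known. Named list genes are the 3 called genes with the largest difference in the majority direction and the largest in the other. Vcl, Zyx, Tln1, Ilk, Tln2, Trem2, Spock1, Cd47, Cd151, Col4a3, Col4a4, Col4a6, Acta2, Myh11, Tagln and Des were named after their values were seen. Probe-set coordinates were not used. Other settings are in the closing section. The number of arrays limits the precision.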

Additional observations from a re-analysis of the deposited data

How the results depend on the processing

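Each value was recomputed with offsets of 1 and 64, quantile normalization, median centring, without the dimmest 30% of genes, with probe sets of a gene averaged, the replicate number as a block, an intensity trend with robust moderation, without each array in turn and without both arrays numbered 1. Of 559 values over the 38 genes 500 kept direction and call, 36 lost the call, 18 gained it and 5 changed sign. Of the 27 called genes 19 kept their call in all settings run. The sign changed, each time without 1 array, for Itgb3 (-0.015 to 0.19 over single-array omissions), Itgb6 (-0.19 to 0.38), Itgb7 (-0.72 to 0.0026) and Lamb1 (-0.16, -0.03, up to 0.25), none of them called. Genes of the 38 called higher in progenitors numbered 20 to 26 over all settings, with 26 under the replicate block. Those called higher in neurons numbered 2 with log2(intensity + 1) and 1 without both arrays numbered 1 (a setting with 2 arrays a group), and 1 to 5 without single arrays. Calls towards neurons in the lists also moved. Dystroglycan partners had 2 with log2(intensity + 64), quantile normalization, median centring and robust moderation, 4 with the replicate block and 1 to 2 without single arrays. The adhesion plaque had 0 without both arrays numbered 1 (1 at an unadjusted p under 0.05, limma) and 0 to 1 without single arrays. Other basement membrane components had 1 without the dimmest 30% and 1 to 2 without single arrays, and other receptors and ligands 2 without both arrays numbered 1 and 2 to 3 without single arrays. Over all genes 1847 were called higher in neurons without both arrays numbered 1, and 2303 to 3041 without single arrays. Apart from fewer arrays or genes tested, the cause was not tested. Signal near the olfactory guide limits what can be said of the dim integrins.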

Other observations

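The α subunits of leukocyte integrins, which carry letters and lie outside the genes chosen, did not pass in either direction. Itgad, Itgae, Itgal, Itgam and Itgax had log2 differences of -0.11, -0.28, 0.17, 0.24 and 0.21 (adjusted p = 0.363 to 0.727 by limma). Itgam, the α subunit of a myeloid integrin, read 225, 76.2 and 88.3 in the GFP+ arrays and 90.1, 98.3 and 101 in the RFP+ arrays, with GFP+ replicate 1 above the other arrays. Itgb3bp, which shares a name with the integrins but encodes a kinetochore protein, was 2.21-fold higher in progenitors (log2 difference 1.15 ± 0.20 SE, adjusted p = 1.62e-04). These genes were picked after their values were seen.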
